A study of Rattus norvegicus with 12 samples.

Results

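Ephrins and their Eph receptors were examined in cultured hippocampal neurons after chronic changes in network activity. The 10 genes chosen by name were the ephrin-A ligands Efna3, Efna4 and Efna5, the ephrin-B ligands Efnb1, Efnb2 and Efnb3, the EphA receptors Epha4, Epha5 and Epha7, and the EphB receptor Ephb2. They were represented by 17 of the 41012 probes on the array, or 10 of 35716 gene names. Of these genes, 9 were found with 14 probes under their own name. The 3 probes of Epha4 carried an older name in the files, RGD1560587_predicted, which RefSeq lists as a synonym of Epha4.

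High-density cultures of dissociated hippocampal neurons from Sprague-Dawley rat embryos (E18.5) were treated for 48 h, starting at 10 to 13 days in vitro. Vehicle control (CTL) received 0.1% DMSO per the labels, TTX-treated cultures received the sodium channel blocker tetrodotoxin at 0.5 to 1 μM, and BC-treated cultures received the GABA-A receptor antagonist bicuculline at 20 μM. The paper names water and not DMSO as the vehicle of this experiment, and the CTL samples were taken as the vehicle control as labelled. Total RNA from 4 samples per treatment was labelled with Cy3 and hybridized to 12 one-color arrays. Whether the 4 samples of a treatment were separate cultures is not stated, and the spread on which every p-value rests may therefore be technical. No genetic change was made in any group, and the cultures hold glia and several kinds of neuron, so that fewer cells of a type and less RNA per cell cannot be told apart.

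Ephrins are membrane-bound ligands, and Eph receptors are the tyrosine kinases that they bind on a neighbouring cell. Ephrin-As are held in the membrane by a lipid anchor and mostly bind EphA receptors, whereas ephrin-Bs span the membrane and mostly bind EphB receptors. EphA4 binds ligands of both classes. Signals run in both directions, forward into the receptor-bearing cell and in reverse into the ligand-bearing cell. In the hippocampus the family is known for axon guidance and for the shaping of dendritic spines and excitatory synapses.

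Probes of the ligand genes called below are shown first, because each signal rests on a short stretch of transcript. For Efna3, which has 2 probes, the less bright one is shown, while its main values below come from the brighter one. The probes are 60 bases long. Coordinates are those in the files (rn4), and a span longer than the probe is a probe whose match in the genome is split. Exon annotation of that build was not used here. The first 3 lines give ephrin-A probes at chr2:181522838-181522897 (Efna4, minus strand), chr9:101227748-101233630 (Efna5, minus strand, split) and chr2:181498872-181499276 (Efna3, minus strand, split).
Efna4: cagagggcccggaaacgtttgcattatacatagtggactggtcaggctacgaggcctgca
Efna5: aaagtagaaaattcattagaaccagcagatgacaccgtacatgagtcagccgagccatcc
Efna3: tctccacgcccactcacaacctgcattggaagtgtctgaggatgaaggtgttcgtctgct

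The probes of Efnb2 (chr16:86209635-86225198, plus strand, split) and Efnb3 (chr10:56376194-56376438, minus strand, split) are aligned below without gaps, since they target corresponding stretches of these related ligands. Capitals mark the 40 of 59 aligned bases that both share.
Efnb2: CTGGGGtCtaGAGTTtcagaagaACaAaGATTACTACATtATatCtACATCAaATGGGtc
Efnb3: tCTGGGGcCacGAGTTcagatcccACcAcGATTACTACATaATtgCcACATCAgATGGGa

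A second pair shows the receptors Epha5 (chr14:25880307-25880366, plus strand) and Epha7 (chr5:44875578-44875637, plus strand), where 36 of 57 aligned bases, in capitals, were shared. These are the less bright probes of both receptors.
Epha5: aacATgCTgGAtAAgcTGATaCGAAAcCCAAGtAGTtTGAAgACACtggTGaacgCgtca
Epha7: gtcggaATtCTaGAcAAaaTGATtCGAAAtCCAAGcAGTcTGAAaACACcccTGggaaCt

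Signals are given as log2 of the background-subtracted spot signal after quantile normalization over the 12 arrays, so that a difference of 1 is a doubling. Levels of different probes were not compared, because probes differ in affinity. Each gene was read by the brightest of its probes, and it was called when limma gave a Benjamini-Hochberg adjusted p under 0.05 over all probes together with at least a 1.5-fold change. Between 74.1 and 78.1% of probes lay well above background per array, and 15 of the 17 ephrin and Eph probes did so on all 12 arrays. The exceptions were Efna5, which was well above background on 1 of 4 TTX arrays, and Efnb2, which was so on 3 of 4. Each of the 4 slides held 1 array of each treatment. Arrays on slides 1 and 3 deviated from their group means together, as did those on slides 2 and 4, and values within these 2 slide sets are given beside results that they touch.

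**Figure D1:**
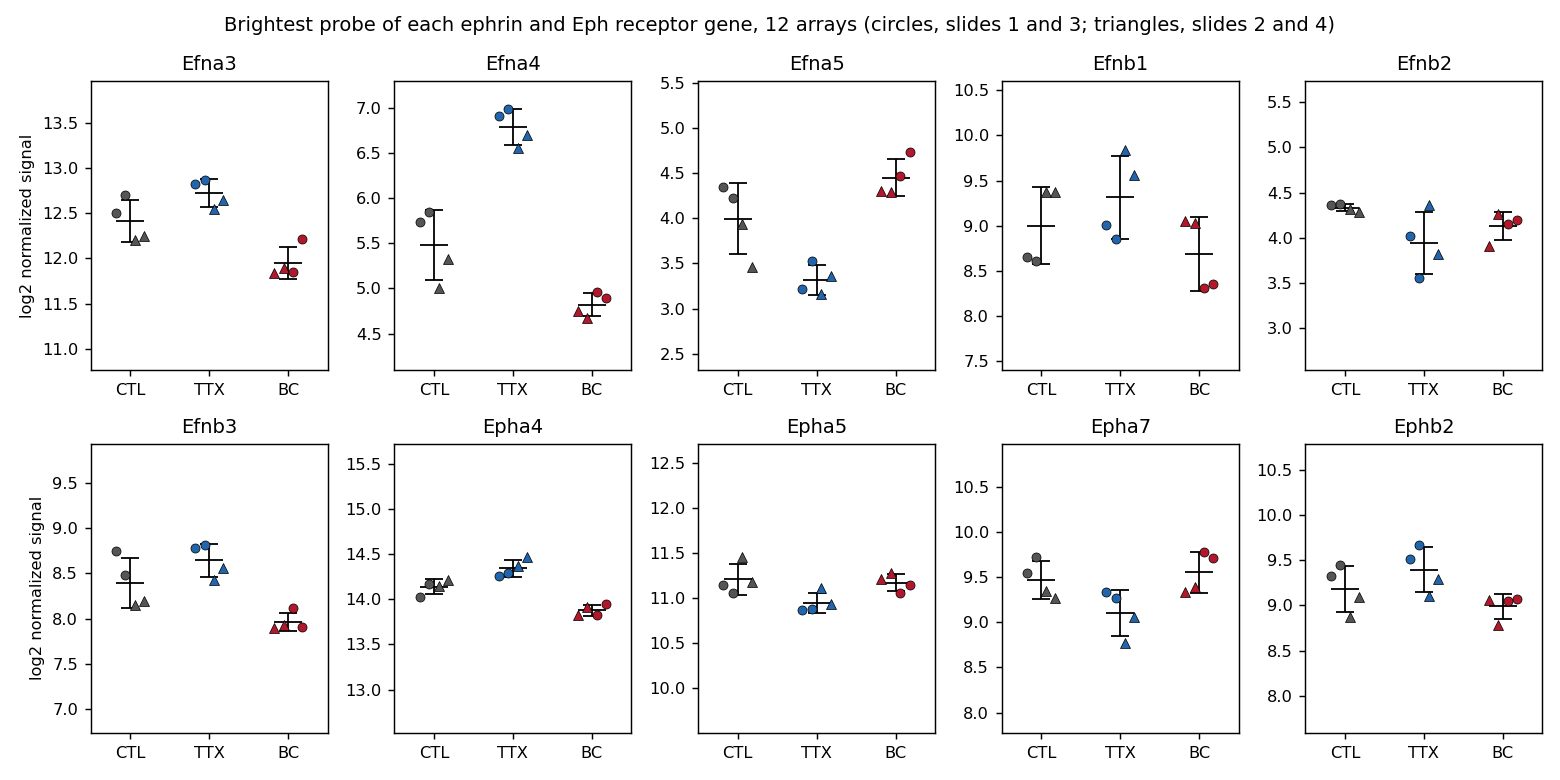
Log2 normalized signal of the brightest probe of each of the 10 genes (y axis, every panel spanning the same range) in the CTL, TTX and BC arrays (x axis). Each point is 1 array, bars show the mean ± SD (n = 4), and symbols mark the slide set. Efna4 separates into 3 levels with TTX highest and BC lowest, Efna5 has its highest mean in BC, and Efnb1 splits by slide set within every treatment.

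After 48 h of TTX, Efna4 rose 2.47-fold (1.31 on the log2 scale, and 0.69 with normexp background correction). Efna5 was called lower (−0.68), a borderline call on a probe well above background on 1 of 4 TTX arrays, lost in 18 of 26 alternative settings. These were the 2 of 10 genes called against CTL. Over all genes, 4.17% were called in this comparison. After 48 h of BC, only Efna4 was called, 1 of 10 beside 3.6% of all genes, and it was lower than in CTL. On acute application, the paper reports, TTX blocked spontaneous firing and BC induced bursts. TTX and BC differed in Efna3, Efna4, Efnb3 and Efna5, 4 of 10 beside 10.9% of all genes. These were the calls at the brightest probe of each gene, and the receptor gene Epha4 was called between TTX and BC at its other probes. The median difference over the 10 genes was 0.21 for TTX minus CTL, −0.23 for BC minus CTL and 0.44 for TTX minus BC, against 0.01, −0.01 and 0.02 over all genes. Shifts of this size were not particular to the family. In the same order, medians were 0.26, −0.23 and 0.47 for 7 markers of glutamatergic neurons and 0.23, −0.03 and 0.25 for 8 of astrocytes. For 12 interneuron markers they were −1.10, 0.07 and −0.96. Whether these shifts are linked was not tested. The first 2 comparisons share the CTL arrays, and each of them shares arrays with the third.

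Efna4 encodes ephrin-A4, a lipid-anchored ligand. Its log2 signals were 5.74, 5.85, 5.01 and 5.32 in CTL, 6.91, 6.98, 6.55 and 6.70 in TTX, and 4.75, 4.68, 4.96 and 4.89 in BC. All TTX arrays lay above all CTL arrays, which in turn lay above all BC arrays. TTX minus CTL was 1.31 on the log2 scale (SE 0.18, 95% interval 0.92 to 1.69, adjusted p = 0.00102). The TTX rise was 1.15 within slides 1 and 3 and 1.46 within slides 2 and 4. BC minus CTL was −0.66 (SE 0.18, adjusted p = 0.0439), −0.87 within the first slide set and −0.45 within the second. TTX minus BC reached 1.97, or 3.91-fold (adjusted p = 1.81e-05), and lay between 1.80 and 2.03 on each of the 4 slides.

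The signal of Efna4 was low, and its fold change depended on the background step. With normexp background correction the difference was 0.69 for TTX minus CTL and −0.23 for BC minus CTL. The TTX call was lost only when the arrays of a treatment on a slide set were averaged (adjusted p = 0.0562), among 26 alternatives. The BC call was kept in 8 of the 26, and of the 12 fits that left out 1 array it was kept only in the one without CTL replicate 3 (−0.82, adjusted p = 0.00923). In the other fits that left out 1 array the adjusted p reached 0.123.

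Efna5 encodes ephrin-A5, a ligand known for topographic mapping of axons. In CTL the log2 signals were 4.35, 4.23, 3.94 and 3.46, in TTX they were 3.21, 3.53, 3.16 and 3.36, and in BC they were 4.30, 4.29, 4.47 and 4.73. One CTL array lay within the TTX range, while every BC array lay above every TTX array. TTX minus CTL was −0.68 (SE 0.18, 95% interval −1.08 to −0.27, adjusted p = 0.041). TTX minus BC was −1.13 (adjusted p = 0.00106), and it was −1.23 and −1.03 within the 2 slide sets. BC minus CTL was 0.45 (95% interval 0.05 to 0.86, adjusted p = 0.192).

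The lower Efna5 signal in TTX against CTL was close to the threshold. It was called in 8 of 26 alternatives and in 2 of the 12 fits that left out 1 array, those without CTL replicate 4 (−0.85, adjusted p = 0.00555) or without BC replicate 4 (adjusted p = 0.0417). With the slide or the slide set as a block Efna5 stayed called, and with slide sets averaged it was not. Replicate numbers paired the TTX and CTL arrays by the check used here, which cannot tell such pairs from a shared slide set. With replicate number as a blocking factor the Efna5 adjusted p was 0.112, or 0.0928 with only the TTX and CTL arrays. With normexp background correction, the difference was −0.13 against CTL and −0.23 against BC. The probe was well above background on 1 of 4 TTX arrays, as given above, and on all CTL and BC arrays.

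Efna3, which encodes ephrin-A3, a ligand of EphA4 that astrocytes also make, was measured by 2 probes. The brighter probe (chr2:181496128-181496187, minus strand) gave 12.51, 12.70, 12.21 and 12.25 in CTL, 12.83, 12.87, 12.54 and 12.64 in TTX, and 11.84, 11.89, 11.85 and 12.22 in BC. TTX arrays all exceeded BC arrays, and CTL arrays lay between and overlapped both. TTX minus BC was 0.77, or 1.71-fold (SE 0.13, adjusted p = 0.00149), and 0.65 (adjusted p = 0.00559) at the other probe. This difference was called in all 26 alternatives. Neither treatment passed against CTL, at 0.30 for TTX (95% interval 0.01 to 0.59, adjusted p = 0.203) and −0.47 for BC (95% interval −0.76 to −0.18, adjusted p = 0.0557).

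Efnb3 encodes ephrin-B3, a membrane-spanning ligand known as a midline guidance cue and as a synaptic protein. Its signals were 8.75, 8.48, 8.15 and 8.20 in CTL, 8.78, 8.81, 8.43 and 8.57 in TTX, and 7.90, 7.93, 8.11 and 7.91 in BC. BC arrays were the lowest, with no overlap with either other group, although the BC minus CTL value of −0.43 was not called (95% interval −0.73 to −0.13, adjusted p = 0.0902). Between TTX and BC the difference was 0.68, or 1.61-fold (SE 0.14, adjusted p = 0.00412), and 0.78 and 0.58 within the 2 slide sets. Against CTL, TTX gave a difference of 0.25 (95% interval −0.05 to 0.56, adjusted p = 0.34).

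**Figure D2:**
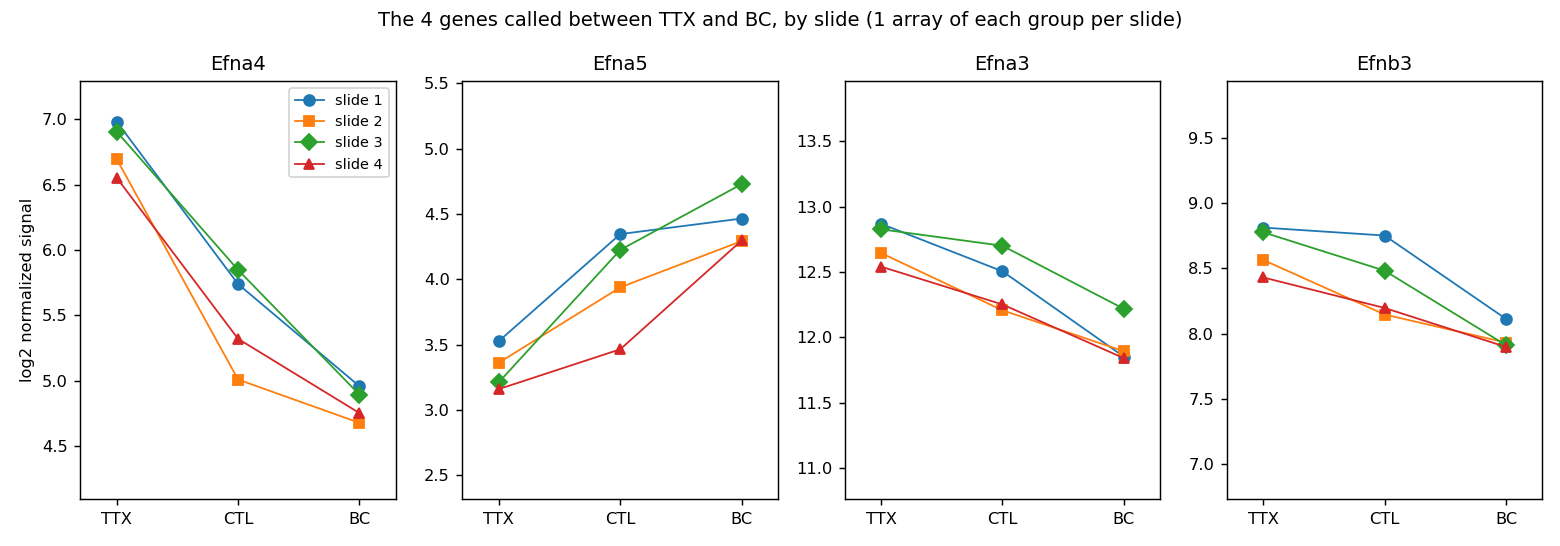
Log2 normalized signal (y axis) of the 4 ligand genes called between TTX and BC, in the TTX, CTL and BC arrays (x axis), with lines joining the 3 arrays of each slide. Efna4, Efna3 and Efnb3 run down from TTX to BC on all 4 slides and Efna5 runs up on all 4.

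The other ligands were not called in any comparison. Efnb1, the ephrin-B1 gene on the X chromosome, gave 8.66, 8.61, 9.37 and 9.38 in CTL, 9.01, 8.86, 9.84 and 9.56 in TTX, and 9.05, 9.03, 8.32 and 8.35 in BC. Within each treatment the lower arrays were those of slides 1 and 3. TTX minus BC was 0.63 (95% interval −0.01 to 1.26, adjusted p = 0.153) over all arrays, 0.60 and 0.66 within the 2 slide sets, and it passed with the slide as a block (adjusted p = 0.000194). Efnb2, the ephrin-B2 gene, ranged from 4.28 to 4.38 in CTL, from 3.55 to 4.37 in TTX and from 3.91 to 4.26 in BC. Its TTX minus CTL value was −0.40 (95% interval −0.72 to −0.07, adjusted p = 0.137), and TTX minus BC was −0.39 in one slide set and 0.01 in the other.

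All 3 probes of the receptor gene Epha4 had higher signals in TTX than in BC, although the brightest probe stayed below 1.5-fold. EphA4 sits on dendritic spines of hippocampal neurons. The brightest probe (chr9:76677199-76677258, minus strand) gave 14.03, 14.17, 14.15 and 14.22 in CTL, 14.26, 14.29, 14.36 and 14.47 in TTX, and 13.82, 13.91, 13.83 and 13.95 in BC. The 3 treatments did not overlap. TTX minus BC was 0.47, or 1.38-fold (SE 0.07, adjusted p = 0.000436), BC minus CTL was −0.26 (adjusted p = 0.0342) and TTX minus CTL was 0.20 (adjusted p = 0.0831).

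The other probes of Epha4 gave larger values and were called between TTX and BC, at 0.80 (adjusted p = 0.000477; chr9:76686923-76690136) and 0.75 (adjusted p = 0.00809; chr9:76692255-76692314). Averaged over its 3 probes, Epha4 was called at 0.67 (adjusted p = 0.000451). Counted by probe, 7 of the 17 probes were called between TTX and BC, beside 11.2% of all probes, and 6 of the 17 were higher in TTX, beside 4.95%. By adjusted p alone, with no fold threshold, 5 of the 10 genes passed between TTX and BC beside 23.4% of all genes.

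The remaining receptors had no probe called in any comparison. Epha5 encodes a receptor of ephrin-A5, and its brightest probe ranged from 11.05 to 11.45 in CTL, 10.87 to 11.11 in TTX and 11.05 to 11.28 in BC. The TTX arrays differed from CTL by −0.26 (95% interval −0.47 to −0.05, adjusted p = 0.123). The other Epha5 probe, shown above, gave −0.39 (adjusted p = 0.0074) against CTL and −0.42 (adjusted p = 0.00164) against BC, below the fold threshold, with all 4 TTX arrays under all others. The 2 probes thus lay on different sides of the adjusted p.

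Epha7 encodes a receptor known to restrain dendrite growth. Its brightest probe ranged from 9.26 to 9.72 in CTL, 8.77 to 9.34 in TTX and 9.33 to 9.77 in BC. The TTX difference from BC was −0.45 (95% interval −0.79 to −0.10, adjusted p = 0.062) and −0.32 (adjusted p = 0.126) at the other probe.

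Ephb2 encodes a receptor that associates with NMDA receptors at excitatory synapses. Its brightest probe ranged from 8.87 to 9.44 in CTL, 9.10 to 9.67 in TTX and 8.79 to 9.07 in BC, and TTX minus CTL was 0.21 (95% interval −0.12 to 0.55, adjusted p = 0.494). The 2 dimmer Ephb2 probes gave 0.37 (adjusted p = 0.0398) and 0.58 (adjusted p = 0.045) for TTX minus CTL, both short of 1.5-fold, with no overlap between the groups.

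**Figure D3:**
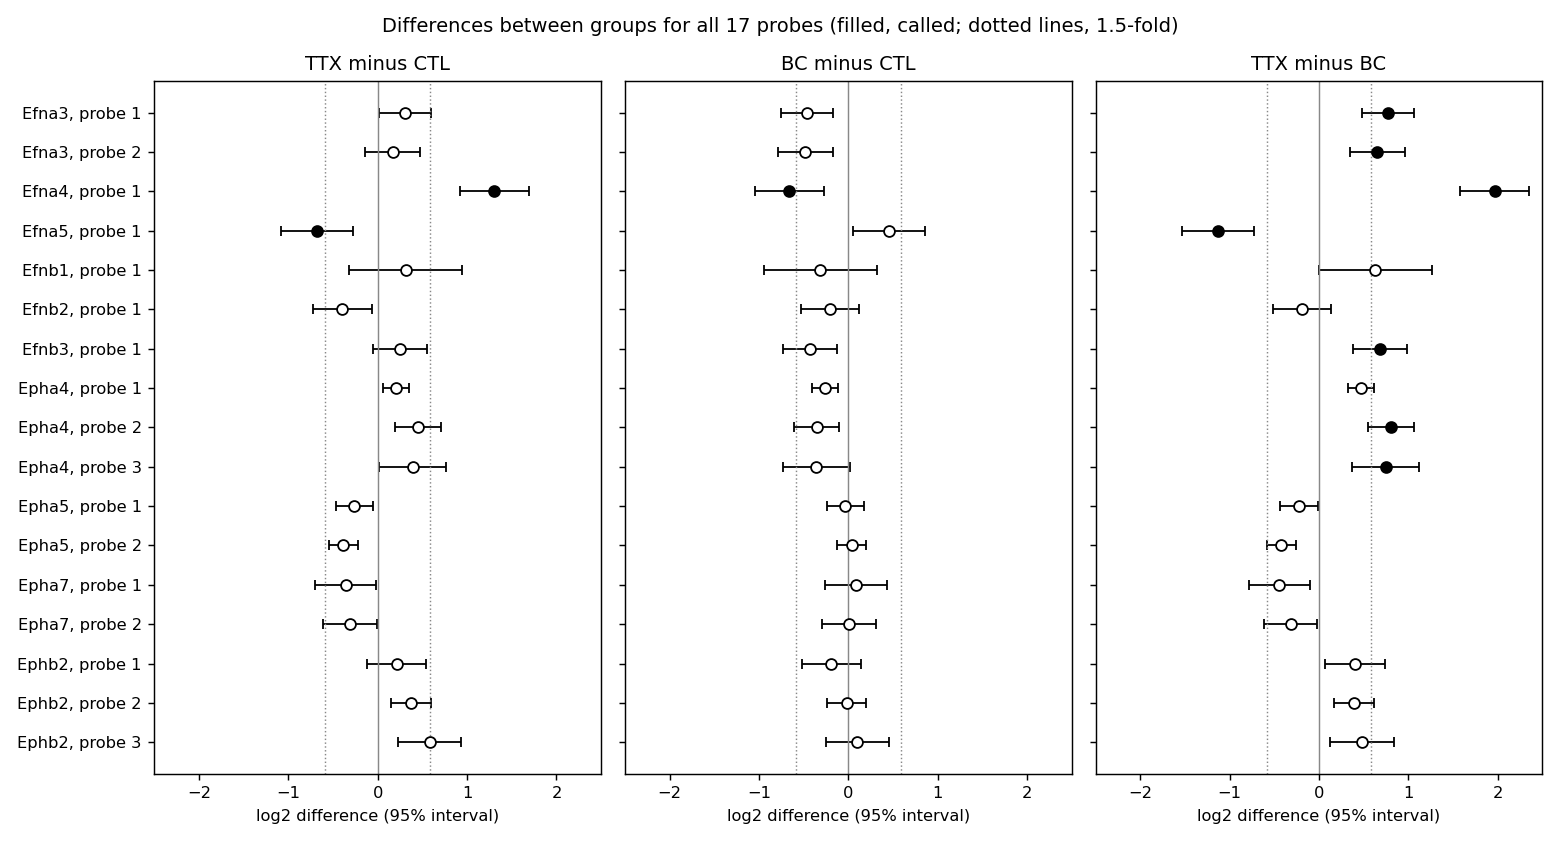
Log2 differences with 95% intervals (x axis) for the 17 probes of the 10 genes (y axis, brightest probe of each gene first) in the 3 comparisons. Filled points were called, and dotted lines mark 1.5-fold. Filled points number 2 for TTX minus CTL, 1 for BC minus CTL and 7 for TTX minus BC.

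Efna3 and Efna4 are neighbours on chromosome 2. In RefSeq's gene table (GRCr8) Efna1, Efna3 and Efna4 lie in this order, with no other protein-coding gene between them. Over the 12 arrays the brightest probes of Efna3 and Efna4 correlated at r = 0.91, a description over arrays that share treatments and slides. The probe of Efna1, the third gene of the cluster, was well above background on 3 of 4 CTL, 1 of 4 TTX and 2 of 4 BC arrays, too few to set its differences beside those of its neighbours.

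The 250 bases before the start of these neighbours are given from RefSeq (GRCr8), Efna3 at chr2:177035839-177036088 and Efna4 at chr2:177050714-177050963, both read along the minus strand, because both genes were higher in TTX than in BC. Capitals mark the match to the EGR motif GCGTGGGCG on the opposite strand.
Efna3 promoter: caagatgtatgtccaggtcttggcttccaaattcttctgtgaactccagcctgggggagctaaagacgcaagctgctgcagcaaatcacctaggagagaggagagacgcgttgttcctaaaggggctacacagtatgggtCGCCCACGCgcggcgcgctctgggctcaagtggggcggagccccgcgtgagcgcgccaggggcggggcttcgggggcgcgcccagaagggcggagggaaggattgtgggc
Efna4 promoter: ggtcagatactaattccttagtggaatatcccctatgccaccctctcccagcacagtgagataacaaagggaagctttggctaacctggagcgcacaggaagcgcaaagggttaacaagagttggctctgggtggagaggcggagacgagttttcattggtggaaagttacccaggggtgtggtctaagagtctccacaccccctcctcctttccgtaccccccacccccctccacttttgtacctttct

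Promoters of 8 of the 10 genes were matched in the RefSeq table, and 4 motifs of activity-regulated or general factors were searched on both strands from 250 bases before to 50 after the start. The EGR motif was found in Efna3 alone, and 0.54% of all 33469 promoters held it. The GC box GGGCGG was found in Efna3 (3 matches) and Epha7 (2 matches), beside 33.06% of all promoters. The CRE motif TGACGTCA (1.83% of all promoters) and the AP-1 motif TGANTCA (7.33%) were found in none of the 8. These are matches of letters in a short window. Epha4 and Efnb3 were not in the table.

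Other members of the family were read from a list of 12 genes, 9 of which had a probe. In TTX against CTL 1 was called higher and 1 lower, in BC against CTL none was called by limma (4 of 9 at an unadjusted p under 0.05), and in TTX against BC 1 was called higher. The shares called over all genes were 4.17, 3.6 and 10.9% in these comparisons. Median differences of the 9 genes were −0.14, −0.17 and −0.20. Ephb1, a receptor of ephrin-Bs, gave 10.39, 10.39, 10.44 and 10.54 in CTL, 11.08, 11.18, 11.22 and 11.08 in TTX, and 10.24, 10.16, 10.25 and 10.06 in BC. TTX minus CTL was 0.70, or 1.63-fold (SE 0.07, adjusted p = 0.000109), and TTX minus BC was 0.96 (adjusted p = 2.56e-06), with no overlap. Both were called in all 26 alternatives.

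Epha10, a family member whose kinase domain is thought to be inactive, fell in TTX. It gave 11.02, 11.06, 10.68 and 10.53 in CTL, 10.02, 10.15, 9.72 and 9.97 in TTX, and 10.50, 10.18, 10.44 and 10.37 in BC. The TTX difference from CTL was −0.86 (SE 0.14, adjusted p = 0.00274), whereas BC minus CTL was −0.45 (adjusted p = 0.074). The means of both treatments lay below that of CTL.

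Proteins that act with Eph receptors or ephrins were read from a list of 45 adaptors, exchange factors, kinases, co-receptors and proteases, 41 of which had a probe. In TTX against CTL 1 was called higher and 1 lower, in BC against CTL 2 each way, and in TTX against BC 3 each way. These counts stand beside 4.17, 3.6 and 10.9% of all genes called in the 3 comparisons. They rest on the brightest probe of each gene, and dimmer probes were not counted. Some uncalled partners differed more at a dimmer probe. A dimmer Grip1 probe had a mean of 9.65 in TTX and 10.65 in BC, and a dimmer Ptk2 probe 13.25 and 12.60, without overlap. The partners' medians of 0.06, 0.04 and −0.0036 were near those of all genes.

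Ngfr, the p75 neurotrophin receptor that serves as a co-receptor in reverse signaling by ephrin-As, had the largest differences of the list. It gave 7.97, 7.83, 8.54 and 7.30 in CTL, 6.17, 6.05, 6.13 and 6.06 in TTX, and 9.75, 9.71, 9.90 and 10.09 in BC. TTX minus CTL was −1.81 (SE 0.21, adjusted p = 0.000392) and BC minus CTL was 1.95 (adjusted p = 0.000281), so that TTX and BC differed 13.6-fold. The order of the treatments, BC above CTL above TTX, was the reverse of that for Efna4.

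Among partners inside the cell, Chn2, which encodes a chimaerin that switches off Rac, was higher in BC than in CTL by 0.87 (SE 0.11, adjusted p = 0.000594). Rasa1, a Ras GTPase-activating protein, was lower in TTX than in BC (−1.10, adjusted p = 2.56e-05). Vav2, an exchange factor recruited by activated Eph receptors, was higher in TTX than in BC (0.82, adjusted p = 0.000228), although its other probe, at 0.46, was not called. Rock1, a kinase that acts on the actin cytoskeleton, was lower in BC than in CTL (−0.69, adjusted p = 0.00821).

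Pik3r1, a regulatory subunit of phosphoinositide 3-kinase, was lower in BC than in CTL (−0.60, adjusted p = 0.0188) and higher in TTX than in BC (1.16, adjusted p = 0.000109). Sdc2, the spine proteoglycan syndecan-2, was higher in TTX than in CTL (0.59, adjusted p = 0.0028), at the edge of the fold threshold, and its other probe, at 0.53, was not called.

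**Figure D4:**
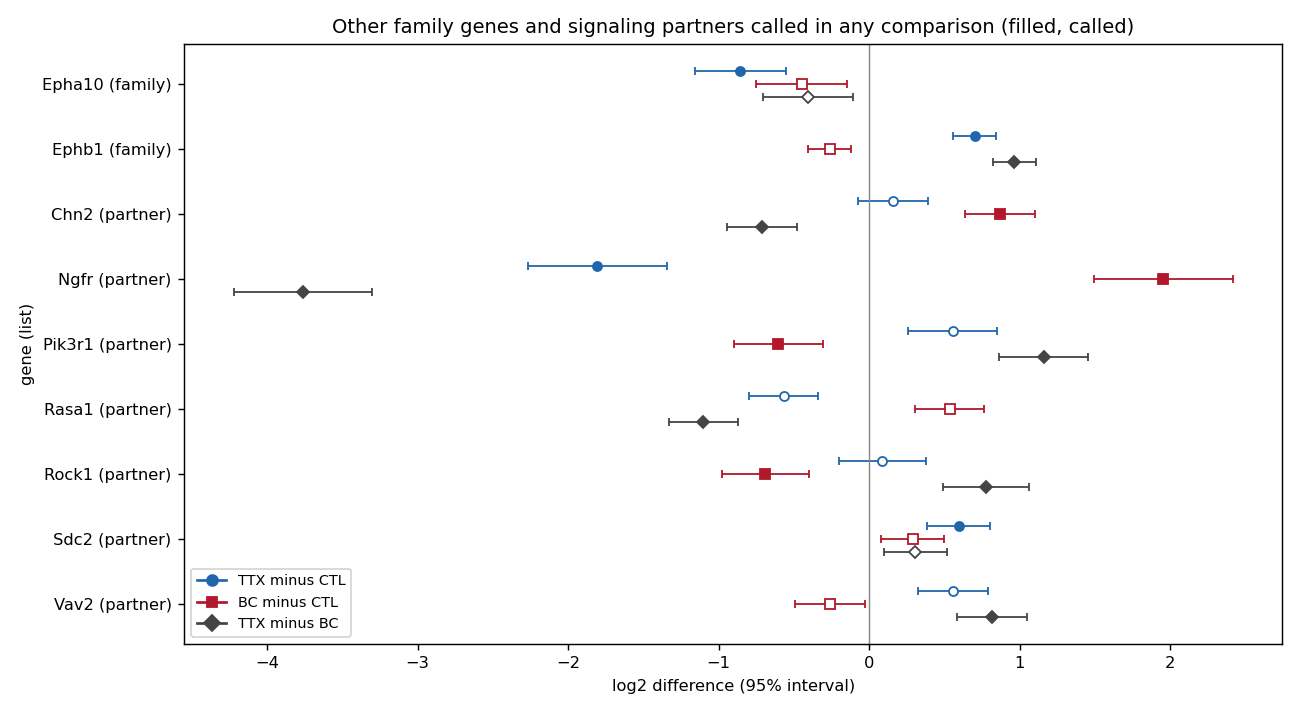
Log2 differences with 95% intervals (x axis) for the 9 genes called among the other family members and signaling partners (y axis), in the 3 comparisons. Filled points were called. Ngfr lies at −1.81 for TTX minus CTL and 1.95 for BC minus CTL, and Ephb1 at 0.70 and −0.26.

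The genes most like the called ligands were searched among 11486 genes well above background on all 12 arrays, by Pearson correlation over these arrays, which share treatments, slides and normalization. For Efna4 they were Smpdl3b (r = 0.998), Csrp2 (r = 0.995) and Gpr153 (r = 0.991). For Efna5 they were Nkd2 (r = 0.973), Mif (r = 0.970) and Map1lc3a (r = 0.968). For Efna3 they were Cbfa2t3 (r = 0.984), Zfp445 (r = 0.981) and Nol9 (r = 0.980), and for Efnb3 Fads2 (r = 0.976), Mgat4b (r = 0.974) and Syt11 (r = 0.973).

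Some markers of cell types moved with the treatments. Neuronal markers were well above background in all groups, and all 8 astrocyte markers were so too, with none called in any comparison (limma; 1, 0 and 2 at an unadjusted p under 0.05). Of 12 markers of GABAergic interneurons, 8 were called lower and 1 higher in TTX against CTL (median −1.10), and 2 higher and 1 lower in BC against CTL (median 0.07). Their summed signal, which Npy and Sst dominate, was 308300 to 359200 in CTL, 132700 to 141200 in TTX and 404700 to 462900 in BC. Against CTL, Npy gave 0.80 in BC and Sst gave 0.06. In TTX against BC, 9 of the 12 interneuron markers were called lower and 1 higher (median −0.96).

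The list for glutamatergic neurons held 7 measured markers, of which Rbfox3, Map2 and Tubb3 are shared by other neurons. The summed signal of the 7, which Tubb3 dominates, was 140800 to 178800 in CTL, 168900 to 192800 in TTX and 118900 to 132500 in BC. Against CTL, 1 marker was called higher in TTX and none in BC (limma, with 3 in BC at an unadjusted p under 0.05). In TTX against BC 3 were called higher and none lower (median 0.47). For 8 markers of the oligodendrocyte lineage the median difference was 0.04 in TTX against CTL and 0.01 in BC against CTL. Between TTX and BC it was 0.10, with 1 marker called each way, as in TTX against CTL.

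For 10 markers of endothelial, mural and fibroblast cells the sum was 8229 to 9817 in CTL, 5592 to 6103 in TTX and 15320 to 21220 in BC. The calls were 2 lower in TTX against CTL, Lum and Dcn, with a list median of −0.0014, and 3 higher in BC against CTL, Lum, Dcn and Cldn5, with a median of 0.49. In TTX against BC 3 of these markers were called lower and 1 higher (median −0.68). The signal of Col1a2 was 12.45 in BC replicate 2 and 8.06 to 8.26 in the other BC arrays. Of 5 microglial markers, 2 were well above background on every array of each group. The part of these changes in the ephrin and Eph results was not tested.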

How the data were processed

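The 10 genes and the gene lists were chosen with earlier results of these data known. The authors deposited scanner intensities of 12 Cy3 arrays, made with Feature Extraction 9.5.1.1, which subtracts background and a spatial trend within each array and flags outlier spots and spots well above background. They also deposited log2 values, quantile-normalized, in the rank order of the median spot signals without background subtraction. Here, outlier spots (13 to 40 per array) were left out, and the log2 of the processed signal was quantile-normalized over all arrays. Each treatment was given 1 mean in limma 3.58.1 (R 4.3.3) with moderated variances (eBayes), for 3 comparisons, with the authors' thresholds (FDR under 0.05, at least 1.5-fold). No filter on dim probes was applied. Probes were named through RefSeq (GRCr8): 10813 by accession, 5133 by symbol, 3455 by synonym, while 21611 kept the file's name. A gene was read by its brightest probe. The number of arrays limits the precision. Named genes were the 10 genes, every called gene of the 2 lists, and the 3 genes most correlated with each called member. Grip1 and Ptk2 were named besides, for their dimmer probes. Marker lists were those of 6 cell types. The steps were tested on simulated data for TTX against CTL. Of 50 features changed 1.5-fold, 12 were called in the right direction, beside 53 of 75 at 2-fold and 62 of 75 at 4-fold.

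After group means were removed, the correlation of same-numbered arrays was 0.28 to 0.38 for TTX with CTL, −0.35 to −0.24 for BC with CTL, and −0.38 to −0.28 for TTX with BC. By the criterion that every pair exceeds 0.1, replicate numbers paired only TTX and CTL, whose same-numbered arrays lie in the same slide set. All pairs of arrays from different treatments in the same slide set gave 0.20 to 0.41, whatever their numbers. Only 2 of the 12 arrays correlated best with an array of their own number. Alternatives covered the background step, normalization, a filter on dim probes, blocks by slide, slide set and replicate, fits of only 2 groups, variance moderation, the fold threshold, probe averaging and each array left out. The replicate block with only 2 groups, and all alternatives for the 2 gene lists, were added after seeing the data. Other software was the R package data.table, version 1.17.8, and, for Python 3.11.15, matplotlib 3.10.9, numpy 2.4.6 and pandas 2.3.3.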

Additional observations from a re-analysis of the deposited data

Results flagged for a closer look

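In 30 groups of 4 arrays (10 genes in 3 treatments), 3 held an array whose gap to its nearest neighbour exceeded Dixon's 95% critical value, which chance exceeds in about 1 of 20 groups. All 3 were BC groups. Efna3 was highest in BC replicate 4, at 12.22 against 11.89 in the next array. Efnb3 was highest in BC replicate 3, at 8.11 against 7.93. Ephb2 was lowest in BC replicate 2, at 8.79 against 9.04. Without each of these arrays, Efna3 and Efnb3 were still called between TTX and BC.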

How the results depend on the processing

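Between TTX and BC, Efna3 and Efna4 were called in all 26 alternatives, Efnb3 in 24 and Efna5 in 23, and 4 genes were called in every fit that left out 1 array. The count was 2 with normexp and 2 with the deposited log2 values, where Efna5 (−0.23 and −0.27) and Efnb3 (0.57 and 0.58) fell short of 1.5-fold. It was 3 with median signal without background correction, without Efna5 (−0.27), and 5 in 5 settings. Efnb1 was gained with the slide as a block, the slide set as a block and slide sets averaged (0.63 in each), and Epha4 with no fold threshold (0.47) and all probes averaged (0.67). In TTX against CTL the count was 1 with normexp, median signal without background correction, deposited log2 values, the replicate block, only 2 groups compared, the replicate block with only 2 groups, and trend and robust moderation, and 0 with slide sets averaged (limma; 8 of 10 at an unadjusted p under 0.05). Leaving out arrays gave 1 to 2. In BC against CTL the count was 0 in the same settings other than trend and robust moderation (4 to 6 of 10 at an unadjusted p under 0.05), 2 with no fold threshold and 0 to 1 when arrays were left out. With slide sets averaged, no gene on the array was called for BC against CTL. The replicate block changed no call between TTX and BC.

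For Epha5 in BC against CTL, uncalled at −0.03, the sign turned with all probes averaged (0.0011), without CTL replicate 3 (0.0468) and without BC replicate 3 (0.0051), and ran from −0.0854 to 0.0468 when arrays were left out. Other family genes called in TTX against CTL numbered 1 with slide sets averaged. In BC against CTL 1 was called with no fold threshold. In TTX against BC 2 were called with the deposited log2 values, 3 with no fold threshold, and 1 to 2 when arrays were left out. Called partners in TTX against CTL numbered 1 with normexp, median signal, deposited log2 values, slide sets averaged and all probes averaged, and 7 with no fold threshold. In BC against CTL they numbered 0 with slide sets averaged (18 of 41 at an unadjusted p under 0.05) and with the replicate block in 2 groups (9 of 41), and 7 with no fold threshold. In TTX against BC 17 passed with no fold threshold. Over all genes, 9.71% passed with no fold threshold in TTX against CTL, 8.09% in BC against CTL and 23.4% in TTX against BC. Sdc2 lost its TTX call without CTL replicate 1 (0.53), TTX replicate 3 (0.53) or TTX replicate 4 (0.57), and Pik3r1 its BC call without CTL replicate 1 (−0.52) or BC replicate 3 (−0.49). Low signal over background limits Efna4, Efna5 and Efnb2. The cause of these changes was not tested.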
